A study of Mus musculus with 8 samples.

Results

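The tumour necrosis factor (TNF) superfamily ligands described here are 10 genes of T cell effector and costimulatory signalling: Tnf, Lta, Ltb, Fasl, Cd40lg, Tnfsf4, Tnfsf8, Tnfsf9, Tnfsf11 and Tnfsf14. They were chosen by name, with earlier results of these data known. Each was read through the probe whose accession is a RefSeq transcript of the gene, and they are 10 of the 15138 genes tested. The arrays carried 1 probe for each of them, so no choice between probes was needed. Messenger RNA was measured on 8 one-colour Agilent arrays in T cells from the spleens of C57BL/6 mice, in 4 groups of 2 arrays. The groups were wild-type (WT) cells kept in medium, Lsp1-deficient (KO) cells kept in medium, WT cells treated with anti-CD3 and anti-CD28 antibodies for 6 h, and KO cells after the same 6 h. Those antibodies engage the T cell receptor complex and its costimulatory receptor. The KO mice were Lsp1-/- animals backcrossed to C57BL/6 for 10 generations, the WT mice were Lsp1+/+ and matched for age and sex, and all were 8 to 12 weeks old. Lsp1 encodes leukocyte-specific protein 1, which binds F-actin. The labels name the cells splenic T cells without giving CD4 and CD8 shares, and nothing in them ties the 2 arrays of a group to different animals, so the p-values below rest on a between-sample spread that may be technical.

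TNF superfamily ligands are mostly type II membrane proteins that assemble as trimers and bind trimeric receptors of the TNF receptor superfamily, which signal through TRAF adaptors or death domains. Some are shed from the surface as soluble cytokines. In T cells the antigen receptor is known to switch on several of them within hours, through NFAT, AP-1 and NF-kappa-B, and they act on neighbouring B cells, dendritic cells, stromal cells, osteoclast precursors and other T cells.

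The genes fall into several chromosomal clusters. In the RefSeq gene order of the mouse assembly GRCm38.p6, Ltb, Tnf and Lta follow each other on chromosome 17 with 0 coding genes between neighbours, and Tnfsf9, Cd70 and Tnfsf14 do so elsewhere on chromosome 17. Tnfsf4, Tnfsf18 and Fasl are neighbours on chromosome 1, and Tnfsf15 and Tnfsf8 on chromosome 4. Tnfsf11 lies on chromosome 14 and Cd40lg on chromosome X. The RefSeq promoter table of the same assembly held 7 of the 10 members. The 4 promoters below are those of the 3 neighbours Tnf, Lta and Ltb, of which Tnf and Lta were called on stimulation and Ltb was not, and of Tnfsf14, whose rise was second to that of Tnf among the 10. Each is the 250 bases before the RefSeq start site, written 5′ to 3′ on the gene's strand, and capitals mark matches to the NFAT core (GGAAA, either strand), the AP-1 site (TGANTCA, either strand), the NF-kappa-B consensus (either strand) and the TATA box (TATAAA, gene strand).
Tnf, chr17:35202008-35202257, minus strand: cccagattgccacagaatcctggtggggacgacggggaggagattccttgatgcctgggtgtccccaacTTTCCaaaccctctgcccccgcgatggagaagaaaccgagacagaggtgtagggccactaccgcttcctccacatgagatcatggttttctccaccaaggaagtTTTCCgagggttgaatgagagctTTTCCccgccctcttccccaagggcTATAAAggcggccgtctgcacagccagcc
Lta, chr17:35205352-35205601, minus strand: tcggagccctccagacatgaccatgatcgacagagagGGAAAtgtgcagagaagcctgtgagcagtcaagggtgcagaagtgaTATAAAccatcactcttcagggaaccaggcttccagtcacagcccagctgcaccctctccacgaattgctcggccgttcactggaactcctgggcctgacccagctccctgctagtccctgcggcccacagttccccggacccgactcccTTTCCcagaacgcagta
Ltb, chr17:35194257-35194506, plus strand: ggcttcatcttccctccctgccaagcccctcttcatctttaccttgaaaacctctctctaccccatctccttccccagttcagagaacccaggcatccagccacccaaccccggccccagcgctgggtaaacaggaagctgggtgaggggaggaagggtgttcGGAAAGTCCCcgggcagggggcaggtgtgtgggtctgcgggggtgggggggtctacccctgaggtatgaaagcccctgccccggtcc
Tnfsf14, chr17:57194182-57194431, minus strand: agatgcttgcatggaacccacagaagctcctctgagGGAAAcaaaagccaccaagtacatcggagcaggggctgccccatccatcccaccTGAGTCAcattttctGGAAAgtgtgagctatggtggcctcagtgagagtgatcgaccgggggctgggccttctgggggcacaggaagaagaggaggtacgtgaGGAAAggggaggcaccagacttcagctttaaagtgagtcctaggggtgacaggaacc

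The NFAT core was matched 3 times for Tnf, 3 times for Tnfsf14, 2 times for Lta and 1 time for Ltb. It was also matched 2 times for Fasl, and 1 time each for Tnfsf8 and Tnfsf11. A match to these 5 letters is common: 55.6% of the 32851 promoters in the table held at least 1 in the same 250 bases. The AP-1 letters were found for Tnfsf14 alone among the 7, between 160 and 154 bases before the start, against 6.75% of all promoters. The NF-kappa-B consensus was found for Ltb alone, between 87 and 78 bases before the start, where it overlaps the NFAT core match, against 7.25% of all promoters. TATAAA stood 29 to 24 bases before the start of Tnf and 167 to 162 before that of Lta, against 7.59% of all promoters. These are letter matches in a short window, not measured binding.

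**Figure D1:**
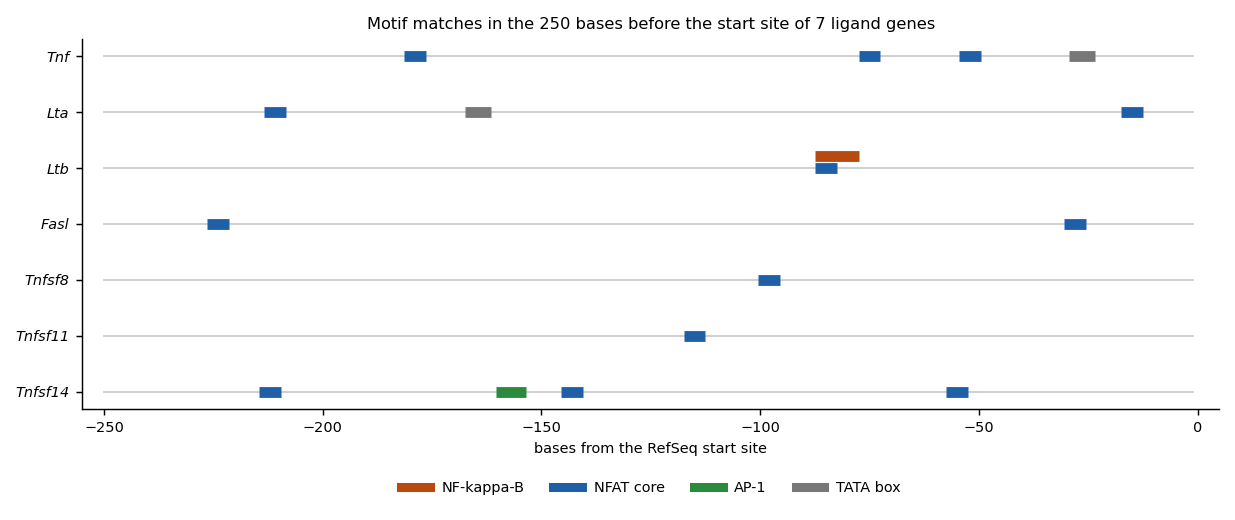
Motif matches along the 250 bases before the RefSeq start site (x axis, bases from the start) for the 7 ligand genes in the promoter table, 1 line per gene; coloured blocks are matches to the 4 motifs. Tnf and Tnfsf14 each carry 3 NFAT core matches, and the NF-kappa-B match of Ltb lies over its single NFAT core match.

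The normalized log2 signal used below is log2 of the background-subtracted spot signal minus the array's 75th percentile, so 0 marks that percentile. Levels are compared within a probe only, since probes differ in how brightly they hybridise. All 10 ligand probes were well above background on all 8 arrays. The lowest reading belonged to Cd40lg, whose signal lay between 68.5 and 150 and at its lowest was 2.72 times the dimmest signal well above background on that array. A gene was called when its limma p, adjusted by Benjamini-Hochberg over all genes, was below 0.05.

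Over the whole series, 58.4% to 69.2% of an array's probes were well above background, and at most 1 spot was saturated. Lsp1, the check of the genotype, had a lower signal in all 4 KO samples than in any WT sample, with KO minus WT of -3.79 ± 0.13 in medium and -3.35 ± 0.13 after stimulation (limma, adjusted p = 0.00127 and 0.00268). Its single probe stayed well above background in KO cells, and the deleted part of the gene is not given in the labels. Its direction held in all alternatives, but its call was lost without both KO replicate 2 arrays (adjusted p = 0.170 in medium and 0.0704 after stimulation), in fits of only the 2 groups compared (0.0690 and 0.0753) and, after stimulation, without WT stimulated replicate 2 (adjusted p = 0.0602). All 13 T cell markers were well above background on all 8 arrays. The 2 KO replicate 2 arrays stood apart: their median over 10 measured neutrophil markers was 4.41 above WT in medium and 4.15 above WT after stimulation, against -0.39 on both KO replicate 1 arrays. Erythroid and platelet markers (12 genes) were 1.79 and 2.20 above WT on those 2 arrays, and monocyte, macrophage and dendritic cell markers (11 measured) 0.81 and 0.84. The summed signal of the neutrophil markers was 505427 and 913505 there and between 168038 and 329828 on the other 6 arrays, and at least 8 of the 10 neutrophil markers were well above background on every array. B cell markers were below WT in KO cells for 13 of 13 genes in both conditions, and natural killer cell markers for 8 of 10 in medium and 9 of 10 after stimulation, with none of either list called. Every KO change and genotype comparison of the 10 ligands is therefore also given without those 2 arrays where its call or direction changes. The WT changes share their estimate of the spread with the KO arrays. Without those 2 arrays the WT changes of Tnfsf4 and Tnfsf9 went from not called to called. For genes outside the 10, values without those 2 arrays were not always given. The part of other cell types in the ligand values was not tested.

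Stimulation of WT cells raised 5 of the 10 ligands and lowered none. Tnf, Tnfsf14 and Lta rose most, by 13.9-fold, 8.65-fold and 4.62-fold, and Tnfsf11 and Tnfsf8 rose by 2.74-fold and 2.24-fold. Of all genes tested, 6.42% were called higher in WT cells, while the 10 were chosen with earlier results of these data known. Stimulation of KO cells raised 7 of 10 and lowered none, against 5.85% of all genes called higher. Falls were called for 3.84% of all genes in WT and 2.27% in KO cells, and changes in either direction for 10.3% and 8.13%. Those 7 were the same 5 with Tnfsf4 and Tnfsf9. The median log2 fold change of the 10 was 1.07 in WT and 1.21 in KO cells, while the median over all genes was -0.09 and -0.08. In each genotype both stimulated arrays lay above both medium arrays for 9 of 10 ligands, against 27.4% of all genes in WT and 22.8% in KO cells, and Ltb was the exception. In RNA from a whole cell sample, fewer expressing cells and less RNA per cell cannot be told apart. With only the 4 arrays of a genotype fitted, the count was 7 in WT and 0 in KO cells. The order of the 2 counts thus depended on the setting. The WT count was 3 when any of the 4 WT arrays was left out, with Tnfsf8 and Tnfsf11 no longer called. The KO count was 4 without WT medium replicate 1, WT medium replicate 2 or KO stimulated replicate 2, it was 5 without both KO replicate 2 arrays, and it was 0 when only the 4 KO arrays were fitted.

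**Figure D2:**
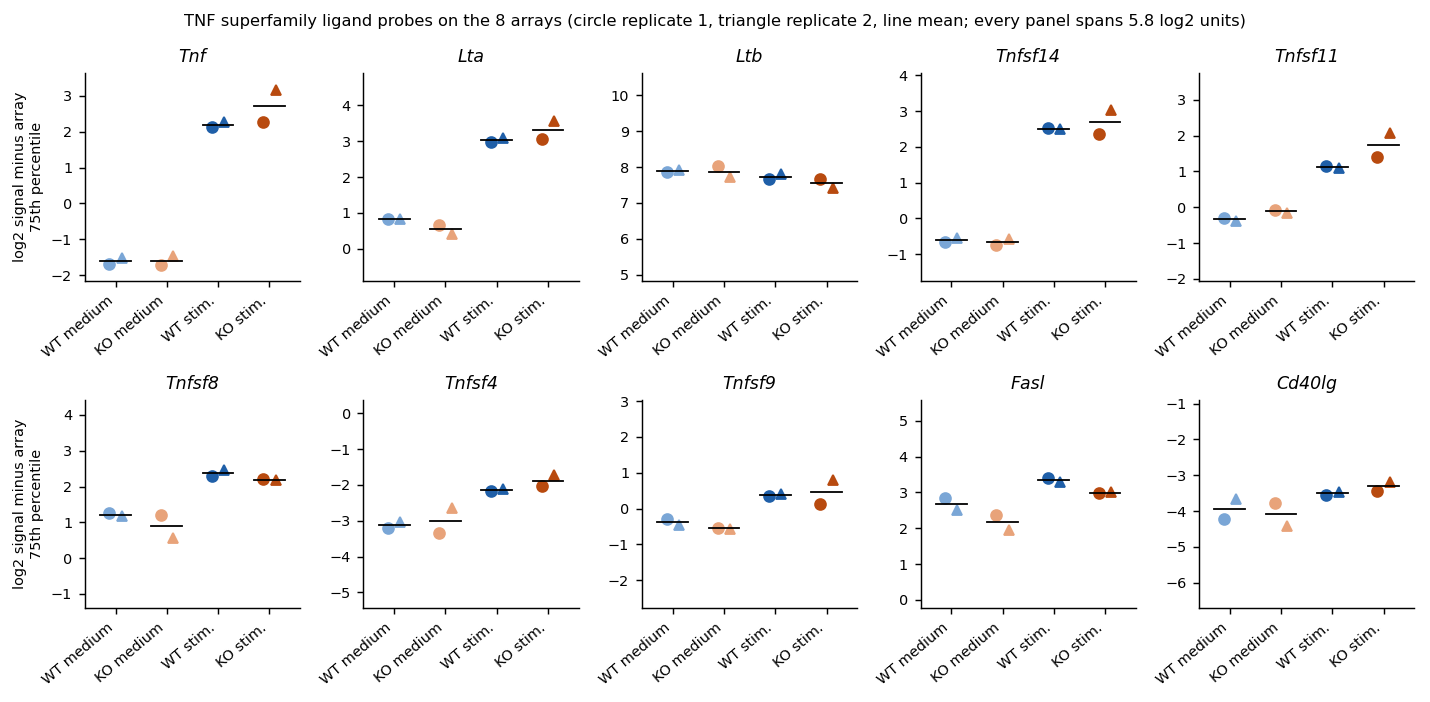
Normalized log2 signal (y axis, log2 signal minus the array's 75th percentile) of the 10 ligand probes in the 4 groups; circles are replicate 1, triangles replicate 2 and lines group means, and every panel spans the same range of log2 units. Tnf, Lta, Tnfsf14 and Tnfsf11 are clearly higher on all 4 stimulated arrays than on the 4 medium arrays, Ltb is nearly level, and the KO stimulated replicate 2 triangle is the highest point for Tnf, Lta, Tnfsf14, Tnfsf11, Tnfsf4, Tnfsf9 and Cd40lg.

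Tnf encodes the founding member of the family, an inflammatory cytokine made as a membrane protein and released by the protease ADAM17. Its log2 level was -1.70 and -1.51 in WT medium, -1.71 and -1.48 in KO medium, 2.13 and 2.26 in stimulated WT cells, and 2.26 and 3.18 in stimulated KO cells. The medium and stimulated arrays did not overlap, and KO stimulated replicate 2 was above the other 3 stimulated arrays. The change on stimulation was 3.80 ± 0.29 in WT (adjusted p = 0.00192) and 4.32 ± 0.29 in KO cells (adjusted p = 0.00145). By size Tnf was number 46 among all genes in WT and number 32 in KO cells. Without both KO replicate 2 arrays the KO change was 3.97 (adjusted p = 0.0109).

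Lta, next to Tnf, encodes lymphotoxin alpha, a secreted cytokine that binds the same receptors as TNF when it forms homotrimers. Its log2 level read 0.83 on both WT medium arrays, 0.66 and 0.42 in KO medium, 2.98 and 3.10 in stimulated WT cells, and 3.05 and 3.58 in stimulated KO cells. Stimulated arrays again lay apart from medium arrays. The change was 2.21 ± 0.20 in WT (adjusted p = 0.00295) and 2.78 ± 0.20 in KO cells (adjusted p = 0.00152), and 2.39 in KO cells without both replicate 2 arrays (adjusted p = 0.0133).

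Ltb, on the other side of Tnf, encodes lymphotoxin beta, which holds lymphotoxin alpha at the cell surface in a heterotrimer that binds the lymphotoxin beta receptor. Its log2 level read 7.85 and 7.93 in WT medium, 8.02 and 7.71 in KO medium, 7.67 and 7.80 in stimulated WT cells, and 7.68 and 7.42 in stimulated KO cells. All 8 arrays thus lay within a narrow band, with the stimulated arrays of each genotype just under its medium arrays. The change was -0.15 ± 0.16 in WT (95% interval -0.53 to 0.23, adjusted p = 0.553) and -0.31 ± 0.16 in KO cells (95% interval -0.69 to 0.07, adjusted p = 0.271). For both arrays to lie below both of the other group was common, at 42.1% of all genes in WT and 28.6% in KO cells. The interval of Ltb ended below that of Lta, which ran from 1.73 to 2.68 in WT and from 2.30 to 3.25 in KO cells, and the difference between the genes was not tested.

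The Tnf and Lta probes were each printed 10 times on every array, which gives the error of the measurement within an array but not the variation between samples. Between 8 and 10 Tnf spots and all 10 Lta spots were usable. The SD over spots lay between 0.0244 and 0.0598 for Tnf and between 0.0602 and 0.0845 for Lta. On KO stimulated replicate 1 the Tnf spots read 2.23 to 2.30, and on KO stimulated replicate 2 they read 3.13 to 3.25. For Lta the same arrays read 2.94 to 3.18 and 3.45 to 3.69. The spots of these 2 arrays did not overlap for either gene.

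**Figure D3:**
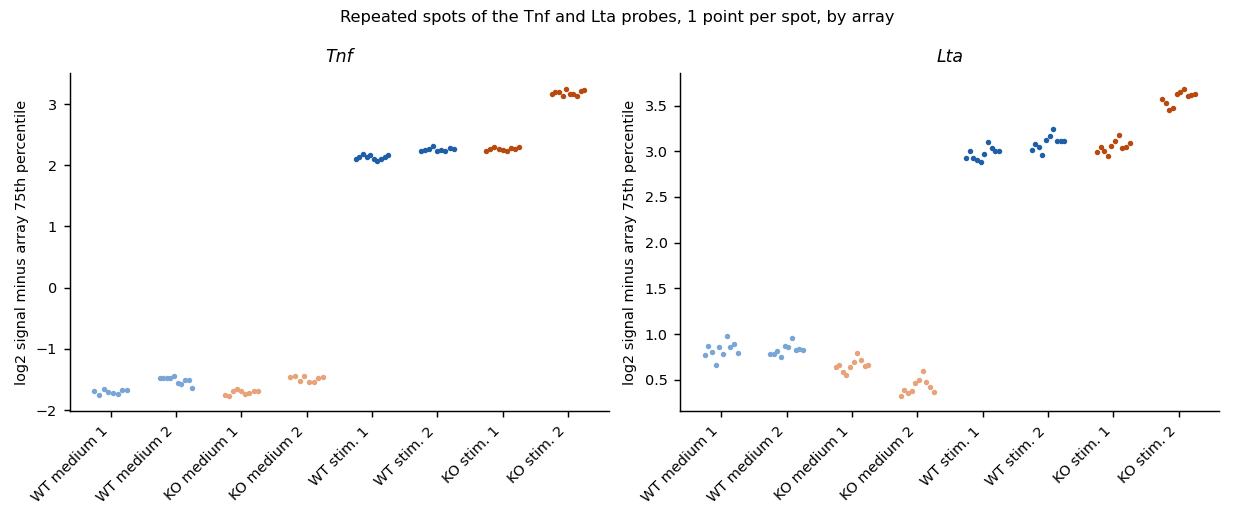
Normalized log2 signal (y axis) of each usable spot of the Tnf probe (left) and the Lta probe (right) on the 8 arrays (x axis); each point is 1 spot. Spots of 1 array lie close together, with an SD of at most 0.0598 for Tnf and 0.0845 for Lta, and the spots of KO stimulated replicate 2 lie above those of the other 3 stimulated arrays.

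Tnfsf14 encodes LIGHT, a ligand of the herpesvirus entry mediator and of the lymphotoxin beta receptor. Its log2 level read -0.66 and -0.55 in WT medium, -0.73 and -0.57 in KO medium, 2.52 and 2.49 in stimulated WT cells, and 2.36 and 3.04 in stimulated KO cells. The 4 medium arrays were close together and the 4 stimulated arrays far above them. The change was 3.11 ± 0.23 in WT (adjusted p = 0.00167) and 3.35 ± 0.23 in KO cells (adjusted p = 0.00144).

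Tnfsf11 encodes RANKL, the ligand that drives osteoclast differentiation and is known in activated T cells. It read -0.29 and -0.38 in WT medium, -0.08 and -0.15 in KO medium, 1.15 and 1.09 in stimulated WT cells, and 1.40 and 2.06 in stimulated KO cells on the same log2 scale. In each condition both KO arrays were above both WT arrays, by less than the stimulation change. Stimulation raised it by 1.46 ± 0.22 in WT (adjusted p = 0.0154) and by 1.84 ± 0.22 in KO cells (adjusted p = 0.00795). The KO call was lost without KO medium replicate 2 (adjusted p = 0.0544).

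Tnfsf8 encodes the CD30 ligand, a membrane ligand of activated lymphocytes. Its log2 level read 1.25 and 1.17 in WT medium, 1.20 and 0.57 in KO medium, 2.28 and 2.45 in stimulated WT cells, and 2.20 and 2.19 in stimulated KO cells. KO medium replicate 2 was the low array. The change was 1.16 ± 0.21 in WT (adjusted p = 0.0269) and 1.31 ± 0.21 in KO cells (adjusted p = 0.0189, a 2.48-fold rise). In KO cells it was 1.0 without both replicate 2 arrays (adjusted p = 0.0664), which ended the call, as did leaving out WT medium replicate 1 or 2 (adjusted p = 0.0501 for each) or KO stimulated replicate 2 (adjusted p = 0.0861).

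Tnfsf4 and Tnfsf9 encode costimulatory ligands, those of OX40 and of the receptor encoded by Tnfrsf9, and are best known on antigen-presenting cells but also present on activated T cells. Tnfsf4 read -3.19 and -3.04 in WT medium, -3.34 and -2.65 in KO medium, -2.16 and -2.12 in stimulated WT cells, and -2.04 and -1.73 in stimulated KO cells. Its change was 0.97 ± 0.24 in WT (adjusted p = 0.0562) and 1.11 ± 0.24 in KO cells (adjusted p = 0.0461), so the 2 genotypes fell on either side of the threshold with nearly the same size. The medium and stimulated arrays did not overlap. The KO call was lost when any single array other than KO medium replicate 2 was left out, and held without both KO replicate 2 arrays (1.30, adjusted p = 0.0371). The WT change was called without KO medium replicate 1 or 2 (adjusted p = 0.0279 for each).

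Tnfsf9 read -0.29 and -0.47 in WT medium, -0.53 and -0.56 in KO medium, 0.34 and 0.41 in stimulated WT cells, and 0.14 and 0.81 in stimulated KO cells. The 2 stimulated WT arrays lay between the 2 stimulated KO arrays. The change was 0.76 ± 0.22 in WT (adjusted p = 0.0849) and 1.02 ± 0.22 in KO cells (adjusted p = 0.0460). The KO change was 0.69 without KO stimulated replicate 2 (adjusted p = 0.0880) and 0.67 without both KO replicate 2 arrays (adjusted p = 0.130), and it kept its call only without KO stimulated replicate 1 among the 8 settings that leave out 1 array. The WT change was called without KO stimulated replicate 1 or 2 (adjusted p = 0.0227 for each).

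Fasl encodes Fas ligand, a death ligand of cytotoxic T cells and natural killer cells. It read 2.85 and 2.51 in WT medium, 2.38 and 1.96 in KO medium, 3.39 and 3.29 in stimulated WT cells, and 2.99 and 3.0 in stimulated KO cells. Its stimulated arrays lay above its medium arrays, and KO arrays below WT arrays in either condition. The stimulation change of 0.66 ± 0.19 in WT (adjusted p = 0.0777) and 0.82 ± 0.19 in KO cells (adjusted p = 0.0515) was not called. It was called in 3 of 22 alternatives in WT and in 9 of 22 in KO cells, none of which left out an array.

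Cd40lg encodes CD40 ligand, through which helper T cells activate B cells and dendritic cells. It read -4.21 and -3.67 in WT medium, -3.77 and -4.42 in KO medium, -3.54 and -3.47 in stimulated WT cells, and -3.43 and -3.19 in stimulated KO cells. The medium arrays of a genotype differed from each other by about as much as the conditions did. The change was 0.44 ± 0.27 in WT (95% interval -0.22 to 1.10, adjusted p = 0.327) and 0.79 ± 0.27 in KO cells (95% interval 0.13 to 1.44, adjusted p = 0.140), and neither was called.

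**Figure D4:**
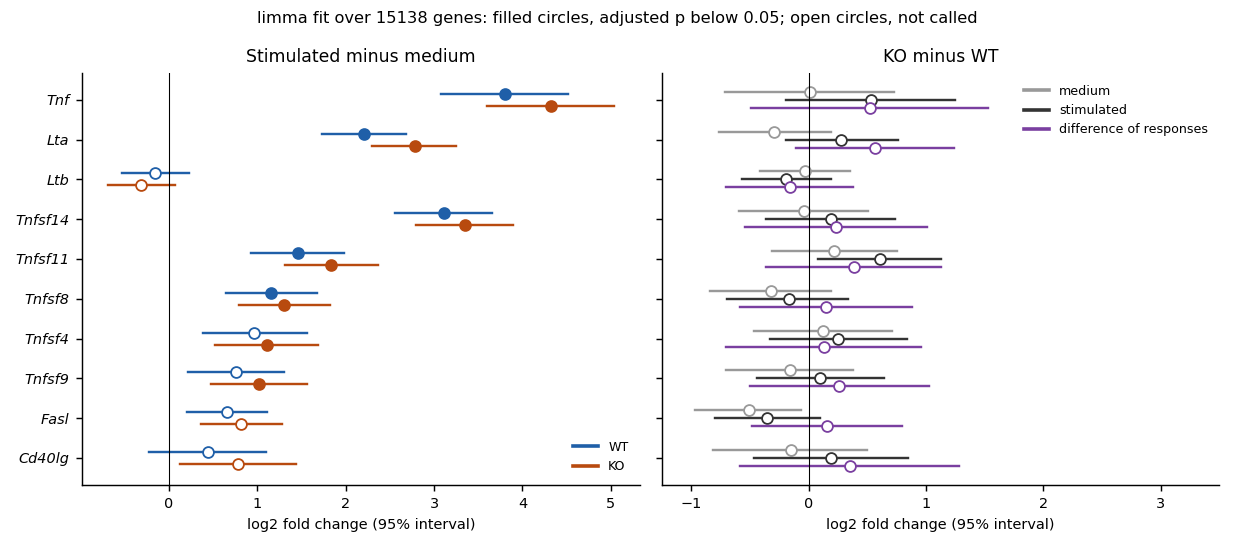
Log2 fold changes with 95% intervals from the limma fit (x axes) for the 10 ligands: stimulated minus medium in WT (blue) and KO (orange) on the left, and on the right KO minus WT in medium (grey), after stimulation (black) and the difference of the 2 stimulation responses (purple). Filled circles are called; on the left 5 WT and 7 KO circles are filled, and on the right 0 are.

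Whether Lsp1 deficiency altered the ligands was asked in medium, after stimulation and as a difference between the stimulation responses. These comparisons reuse the same 8 arrays as the stimulation comparisons. In medium 0 of 10 ligands were called by limma, against 0.00661% of all genes in either direction. An unadjusted limma p below 0.05 was found for 1 of 10, Fasl, and for 865 of all 15138 genes. Fasl was -0.51 ± 0.19 in KO minus WT (95% interval -0.97 to -0.06, adjusted p = 0.736). Natural killer cell markers, from a cell type that also makes Fas ligand, had a median KO minus WT of -0.47 in medium (range -0.70 to 0.04) and -0.36 after stimulation (range -0.72 to 0.01), all 10 were well above background on every array, and their part in the Fasl values was not tested. The other 9 lay between -0.32 (Tnfsf8) and 0.22 (Tnfsf11), and Tnf was at 0.01 with a 95% interval of -0.71 to 0.73. Both KO arrays lay below both WT arrays for Lta, Fasl and Tnfsf9, that is 3 of 10 against 21.3% of all genes, and above them for Tnfsf11, that is 1 of 10 against 12.8%. Without both KO replicate 2 arrays the sign turned for Cd40lg (0.17), Ltb (0.13), Tnf (-0.10) and Tnfsf4 (-0.22), each with an adjusted p of 0.992.

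After stimulation 0 of 10 ligands were called by limma between genotypes, against 0.0198% of all genes in either direction. Tnfsf11 alone of the 10 had an unadjusted limma p below 0.05, as did 762 of all 15138 genes. Tnfsf11 was 0.61 ± 0.22 higher in KO cells (95% interval 0.08 to 1.13, adjusted p = 0.848). Tnf was 0.53 ± 0.29 higher (95% interval -0.19 to 1.25, adjusted p = 0.932) and Fasl -0.35 ± 0.19 (95% interval -0.80 to 0.10, adjusted p = 0.932). Both KO arrays lay above both WT arrays for Tnf, Cd40lg, Tnfsf4 and Tnfsf11, that is 4 of 10 against 13.2% of all genes. They lay below for Fasl and Tnfsf8, that is 2 of 10 against 24.8%. Without both KO replicate 2 arrays the difference was 0.07 for Tnf and 0.27 for Tnfsf11 (adjusted p = 0.997 and 0.947), and Tnfsf14 and Tnfsf9 turned from 0.19 and 0.10 to -0.15 and -0.23.

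The stimulation responses themselves were compared by the interaction term, KO response minus WT response. It called 0 of 10 ligands by limma, against 0.00661% of all genes. At an unadjusted limma p below 0.05 there were 0 of 10, against 459 of all 15138 genes. The term lay between -0.16 (Ltb) and 0.57 (Lta), was above 0 for 9 of 10, and had an adjusted p of 1 for each. Its median over all genes was also above 0, at 0.02, and the share of all genes above 0 was not counted. The 10 terms come from the same 8 arrays, so they are not independent of each other. For Lta the 95% interval ran from -0.11 to 1.24, and for Tnf, at 0.52, from -0.49 to 1.53. Measured from the mean of the medium arrays of the same genotype, the Tnf responses of the single stimulated arrays were 3.73 and 3.87 in WT and 3.86 and 4.78 in KO cells, and those of Lta were 2.15 and 2.27 in WT and 2.51 and 3.04 in KO cells. By this measure KO replicate 2 gave the largest response of the 4 for 8 ligands, all but Ltb and Tnfsf8, though for Fasl only by 0.83 against 0.82 on KO replicate 1. Without both KO replicate 2 arrays the term was 0.17 for Tnf and 0.18 for Lta, and it turned below 0 for Cd40lg, Fasl, Tnfsf8, Tnfsf9 and Tnfsf14.

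The spread between arrays of a group bears on these comparisons. KO stimulated replicate 2 read higher than replicate 1 for 8 of 10 ligands, with a median gap of 0.42 against -0.03 over all genes. The gaps were 0.92 for Tnf, 0.69 for Tnfsf14, 0.67 for Tnfsf9, 0.66 for Tnfsf11 and 0.53 for Lta. In stimulated WT cells the same gaps were 0.13, -0.03, 0.08, -0.06 and 0.12. In KO medium replicate 2 read higher for 3 of 10 ligands, with a median gap of -0.15, near the -0.13 over all genes. The array with the high ligand readings is also 1 of the 2 with high neutrophil, erythroid and monocyte markers. On the other, KO medium replicate 2, Lta, Ltb, Fasl, Cd40lg, Tnfsf8 and Tnfsf9 had their lowest reading of the 4 medium arrays. Tnf and Tnfsf4 had their highest there, for Tnf -1.48 against -1.51 on WT medium replicate 2. Tnfsf11 and Tnfsf14 lay between, and a link to other cell types was not tested.

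Most other ligands of the family, not among the 10, were not called on stimulation. Of 8 listed, 7 were measured (Tnfsf13 had no probe named here). In WT cells 1 was called higher and in KO cells 2, against 6.42% and 5.85% of all genes. The median log2 level of the 7 lay between -3.73 and -2.23 over the 8 arrays, and at least 6 were well above background on each. Cd70, which lies between Tnfsf9 and Tnfsf14 and encodes the ligand of CD27, rose by 3.31 ± 0.32 in WT (adjusted p = 0.00426) and 3.32 ± 0.32 in KO cells (adjusted p = 0.00414). Tnfsf10, which encodes the death ligand TRAIL, rose by 1.24 ± 0.23 in KO cells (adjusted p = 0.0308) and was 0.98 ± 0.23 in WT cells (adjusted p = 0.0525). Without both KO replicate 2 arrays the KO change of Tnfsf10 was 0.82. Tnfsf18, between Tnfsf4 and Fasl, was -0.33 ± 0.51 in WT and 0.98 ± 0.51 in KO cells, and Tnfsf15, next to Tnfsf8, was 0.22 ± 0.17 and 0.34 ± 0.17, none of these called. The median of the 7 was 0.22 in WT and 0.34 in KO cells. The KO count was 1 when any array other than KO stimulated replicate 1 was left out, and the WT count was 2 without KO stimulated replicate 1 or 2.

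On the receptor side, 10 of 11 listed receptors of the 10 ligands passed the filter on dim probes (Tnfrsf8 did not). Of these, 4 rose and none fell in each genotype, against 6.42% of all genes called higher in WT and 5.85% in KO cells. Cd40, the receptor of CD40 ligand, rose by 2.80 ± 0.42 in WT and 3.08 ± 0.42 in KO cells (adjusted p = 0.0159 and 0.0117). Tnfrsf4, which encodes OX40, rose by 1.35 ± 0.17 and 1.64 ± 0.17 (adjusted p = 0.00954 and 0.00519). Tnfrsf11b, which encodes osteoprotegerin, the decoy receptor of RANKL, rose by 1.38 ± 0.16 and 1.21 ± 0.16 (adjusted p = 0.00721 and 0.00990). The fourth was Tnfrsf9 in WT cells, at 0.86, and Fas in KO cells, at 1.0. The TNF receptor genes Tnfrsf1a and Tnfrsf1b were at 0.00 and 0.30 in WT and at -0.25 and 0.34 in KO cells and were not called. The median of the list was 0.48 in WT and 0.27 in KO cells. The WT count was 0 without WT medium replicate 1 or either stimulated WT array and 2 without WT medium replicate 2, and the KO count was 2 without KO medium replicate 2 or KO stimulated replicate 2, or without both.

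Of 16 adaptors and feedback genes of TNF receptor signalling, 2 rose and 1 fell in WT, and 2 rose and none fell in KO cells. The shares over all genes were 6.42% higher and 3.84% lower in WT, and 5.85% and 2.27% in KO cells. Whether the list departs from these shares was not tested. Traf4, a TRAF family adaptor, rose in both genotypes, by 0.81 ± 0.18 and 1.08 ± 0.18 (adjusted p = 0.0415 and 0.0196). In WT cells Ripk1, a kinase of the receptor complex, rose by 0.97 and Tnip1, a partner of the inhibitor A20, fell by 0.78, and in KO cells Cflar, an inhibitor of caspase-8 activation, rose by 0.86. Tnfaip3, which encodes A20, was at 0.25 in WT and 0.46 in KO cells and was not called. The WT count of 3 was 0 without WT medium replicate 1 or either stimulated WT array and 1 without WT medium replicate 2. The KO count of 2 was 1 without KO medium replicate 1 and 0 without KO medium replicate 2, KO stimulated replicate 2 or either stimulated WT array. Without WT medium replicate 1 or 2 it was again 2, but Cflar was not called (adjusted p = 0.0698 for each).

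Of 9 genes for shedding, processing and mRNA decay of ligands, 1 rose and 1 fell in each genotype. Over all genes, 6.42% were called higher and 3.84% lower in WT, and 5.85% and 2.27% in KO cells. Whether the list departs from these shares was not tested. Zfp36, which encodes tristetraprolin, a protein that promotes decay of Tnf mRNA, rose by 0.88 ± 0.13 in WT and 0.86 ± 0.13 in KO cells (adjusted p = 0.0140 and 0.0146). Its relative Zfp36l2 was at -1.20 ± 0.14 and -1.24 ± 0.14 (adjusted p = 0.00711 and 0.00638), the fall in each genotype. Adam17, the gene of the protease that sheds TNF, was at 0.13 ± 0.13 in WT and 0.00 ± 0.13 in KO cells. The WT count of 2 was 1 without either WT medium array and 0 without either stimulated WT array, and the KO count of 2 was 1 without either KO medium array, either stimulated WT array or KO stimulated replicate 2.

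Of 18 transcription factors known at ligand promoters, 10 rose and none fell in each genotype, with medians of 0.80 in WT and 1.0 in KO cells. The share of all genes called higher was 6.42% in WT and 5.85% in KO cells. Egr1 rose by 3.17 ± 0.23 and 3.87 ± 0.23 (adjusted p = 0.00176 and 0.00110), Egr2 by 2.69 ± 0.22 and 3.42 ± 0.22 (adjusted p = 0.00234 and 0.00118), and Fosl1, an AP-1 subunit, by 2.38 ± 0.25 and 2.39 ± 0.25 (adjusted p = 0.00573 and 0.00554). The WT count was 3 and 6 without WT medium replicate 1 and 2, and 2 and 3 without stimulated WT replicate 1 and 2, while the KO count was 5 without KO medium replicate 2 and 6 without KO stimulated replicate 2. No gene of these 5 lists, of 7, 10, 16, 9 and 18 measured genes, was called between genotypes or in the interaction term by limma. At an unadjusted limma p below 0.05 there were 4 in medium, 3 after stimulation and 2 in the interaction term. Over all 15138 genes the same cutoff gave 865, 762 and 459.

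**Figure D5:**
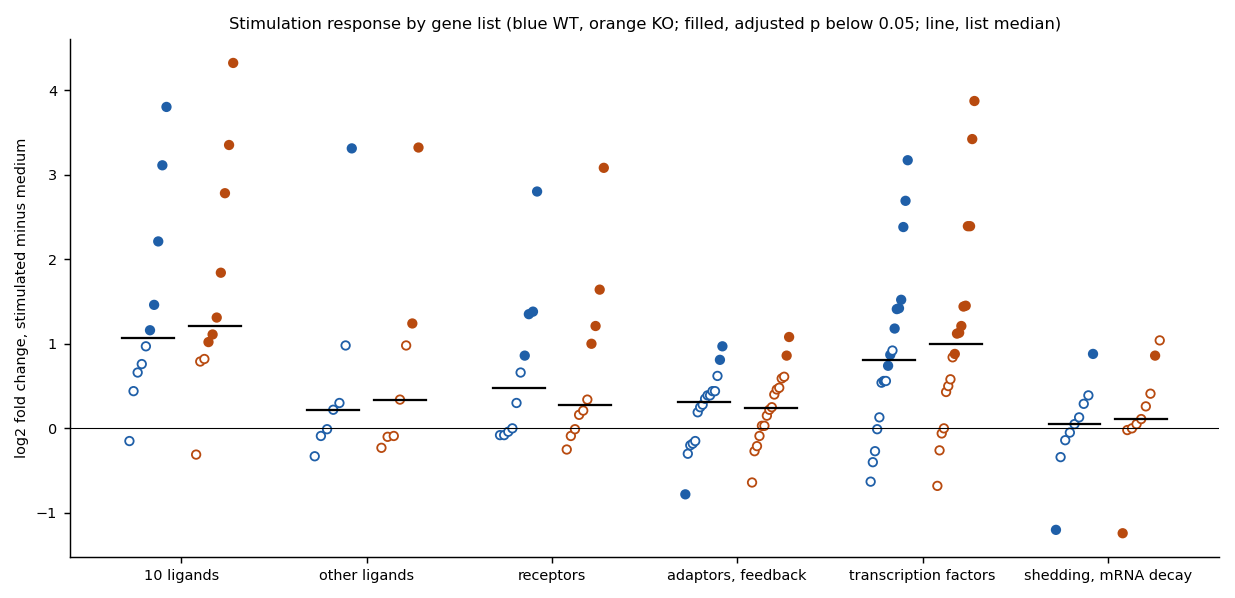
Log2 fold changes on stimulation (y axis) of each measured gene of the 6 lists (x axis), blue for WT and orange for KO cells; filled circles are called and black lines are list medians. The 10 ligands and the transcription factors have the highest medians, at 1.07 and 0.80 in WT cells.

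Across the 8 arrays the ligands outside Ltb followed Tnf to different degrees, as a description of points that fall into a medium and a stimulated cluster. Pearson's r with Tnf was 0.998 for Tnfsf14, 0.994 for Lta, 0.977 for Tnfsf11, 0.955 for Tnfsf9, 0.952 for Tnfsf4, 0.921 for Tnfsf8, 0.811 for Cd40lg and 0.774 for Fasl, and -0.755 for Ltb. Outside the family the 3 genes most like Tnf over the 8 arrays were Shmt1 (r = 0.999), a serine hydroxymethyltransferase gene, Ccl4 (r = 0.998), a chemokine gene, and Mfsd2a (r = 0.998), a lipid transporter gene. They rose by 3.41, 4.82 and 4.02 in WT and by 3.83, 5.11 and 4.58 in KO cells on the log2 scale.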

How the data were processed

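Messenger RNA from 8 samples was measured on 8 Cy3-labelled Agilent arrays, on 1 slide and in 1 scan, so neither is a batch that could be tested. The slide position of an array and its group cannot be told apart. Per the file headers, the authors' deposited spot intensities come from Agilent Feature Extraction version 10.7.1.1, whose processed signal is background-subtracted. The submitters' value table holds the median intensity, with 0 values differing, and served as an alternative.

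Each array has 62976 spots. Control spots (3671) and outlier spots were left out, repeated spots of a probe were averaged, and log2 signal was reduced by the array's 75th percentile, which lay between signals of 1200 and 1469. A probe was kept where both arrays of any 1 group read it well above background (37255 probes). Of 55681 probes, 26056 were named through RefSeq accessions (GRCm38.p6), while mm9 is the build in the array files, so printed promoter coordinates are those of the RefSeq table. Where a gene had several probes, that of highest mean signal stood for it, giving 15138 genes.

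limma 3.58.1 in R 4.3.3 (statmod 1.5.0, data.table release 1.17.8) fitted 4 group means over 8 arrays, with 4 residual degrees of freedom and 2.11 added by moderation. The 5 contrasts were adjusted over all genes by Benjamini-Hochberg, two-sided. Errors with ± are standard errors of this fit. An exact permutation test of 2 arrays against 2 could reach at smallest p = 0.333. The number of arrays limits the precision. The fit was tested on simulated data.

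The text names all 10 members, Lsp1, per other list up to 3 of the largest changes called in both genotypes, family neighbours, and the 3 genes most like Tnf. Other list genes named beside these were chosen after their values were seen. The members and lists were chosen with earlier results of these data known. Alternatives covered background correction, scaling, filters, probe choice, arrays left out, replicate blocks and array weights. The labels do not say what a replicate number marks, and it was not taken to pair samples across all groups: deviations of same-numbered arrays correlated at 0.161 within WT, 0.742 within KO and between -0.244 and -0.0612 across genotypes.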

Additional observations from a re-analysis of the deposited data

Results flagged for a closer look

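Lta stood out because its genotype difference pointed one way on both medium arrays and the other way on both stimulated arrays. Against the WT mean of the same condition, the KO arrays read -0.17 and -0.40 in medium, and 0.02 and 0.55 after stimulation. KO stimulated replicate 1, at 3.05, lay between the stimulated WT readings of 2.98 and 3.10. The stimulated side therefore rests on KO stimulated replicate 2, an array with high neutrophil and erythroid markers. The difference between conditions was tested by the interaction term, which was 0.57 ± 0.28 (limma, adjusted p = 1, unadjusted p = 0.0850), and was not called. Without both KO replicate 2 arrays the term was 0.18.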

How the results depend on the processing

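All 10 ligands kept the direction of their stimulation change in all 22 alternatives in both genotypes. Tnf, Lta and Tnfsf14 were called in 22 of 22 in WT and in 21 of 22 in KO cells, where the exception was the fit of the KO arrays alone (adjusted p = 0.0522 for each). The count of ligands called in WT cells was 5, and 3 to 6 when 1 array was left out, and 8 with array weights, an alternative that gives the arrays unequal weight. In KO cells it was 7, and 4 to 6 when 1 array was left out, and 0 when only the KO arrays were fitted. When only the WT arrays were fitted, the WT count was 7. The array weights were equal for the 2 arrays of each group, from 0.596 on stimulated KO to 2.98 on stimulated WT arrays. They therefore could not set the KO replicate 2 arrays apart from replicate 1. With the replicate number as a block the counts were 6 in WT and 7 in KO cells. With a block nested in genotype they were 7 and 8. No ligand was called between genotypes or in the interaction term in any of the 21 alternatives run for each.

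Signs of uncalled genotype values turned in some settings. In medium, normexp gave -0.0011 for Tnf, and median scaling gave 0.07 for Ltb and 0.06 for Tnfsf14. Without both KO replicate 2 arrays the medium values were 0.17 for Cd40lg, 0.13 for Ltb, -0.10 for Tnf and -0.22 for Tnfsf4, the stimulated values -0.15 for Tnfsf14 and -0.23 for Tnfsf9, and the interaction terms -0.09 for Cd40lg, -0.06 for Fasl, -0.03 for Tnfsf14, -0.16 for Tnfsf8 and -0.09 for Tnfsf9. Leaving out 1 array gave -0.48 to 0.17 for Cd40lg, -0.18 to 0.13 for Ltb, -0.10 to 0.12 for Tnf, -0.12 to 0.04 for Tnfsf14 and -0.22 to 0.47 for Tnfsf4 in medium, -0.15 to 0.54 for Tnfsf14 and -0.23 to 0.44 for Tnfsf9 after stimulation, and -0.05 to 0.38 for Fasl, -0.11 to 0.58 for Tnfsf14, -0.21 to 0.48 for Tnfsf4, -0.16 to 0.47 for Tnfsf8 and -0.07 to 0.60 for Tnfsf9 for the interaction. The cause was not tested.

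Over all genes, 1553 were called in WT and 1230 in KO cells. These counts were 199 to 1753 and 366 to 1482 with 1 array left out, 3003 and 833 with no filter on dim probes, 2713 and 38 with only the groups compared, 2713 and 436 without both KO replicate 2 arrays, 3461 and 687 with array weights, 1559 and 1148 with the replicate block, and 3522 and 2776 with the nested block. The genotype contrasts called 1 gene in medium, 3 after stimulation and 1 in the interaction, and 1 to 2, 0 to 13 and 0 to 1 with 1 array left out. Over the alternatives the lists gave 0 to 5 receptors, 0 to 8 adaptors in WT and 0 to 7 in KO cells, and 2 to 13 transcription factors in WT and 1 to 12 in KO cells. Groups reduced to 1 array are assumed to vary like the others. The nested block was not run for the genotype contrasts, where each block holds 1 genotype, nor the fit of only the groups compared for the interaction, which uses all groups. Normexp on the median spot signal and the 75th percentile over averaged probes were chosen after seeing the data. The dimmest probe, Cd40lg, limits what can be seen of that gene.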
